A study of Mus musculus with 34 samples.

Results

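The comparison set 1 RNA-seq library of mouse heart against 3 libraries of mouse liver, all 4 made from total RNA with no removal of ribosomal RNA. These were 4 of the 34 libraries in the series, chosen by their titles: the single unselected heart library of batch 1 and the unselected liver libraries of the same batch, replicates 1 to 3. Both tissues were taken from a wild-type C57BL/6J mouse, 12 weeks old, that had received no treatment named in the labels. The rest of the series compared ways of removing ribosomal RNA from liver RNA, PCR ramp rates and fragment lengths. All 4 libraries entered a stranded total RNA protocol with 20 ng of RNA, a slow PCR ramp, medium fragments and 13 PCR cycles. The labels describe 1 animal, so the liver libraries are technical replicates, and the spread between them is not the spread between mice. The heart side has 1 library, so no difference has a replicate check there and none was tested.

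The heart and the liver hold contrasting cell types. Cardiomyocytes contract by sliding thick myosin filaments along thin actin filaments, cycle calcium through the sarcoplasmic reticulum at every beat, and make most of their ATP in mitochondria from fatty acids, ketone bodies and lactate. Hepatocytes secrete most plasma proteins, make bile acids, urea, glucose and ketone bodies for other organs, and modify drugs and lipids with cytochrome P450 enzymes. A bulk library averages over all cells of the tissue, so fewer cells of a type and less RNA per cell cannot be told apart in any value below.

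Total estimated counts were 22.3 M (1e+06 counts) in the heart library and 20.0 to 21.7 M in the liver libraries. Most of them fell on 4 genes: CT010467.1, Lars2 and the mitochondrial ribosomal RNAs mt-Rnr1 and mt-Rnr2 took 80.6% of counts in heart and 85.4 to 85.7% in liver. These genes were left out, and every level below is in CPM (counts per 1e+06 counts) of the remaining 4.33 M counts in heart and 2.89 to 3.10 M in liver. The make-up of the excluded counts differed by tissue. CT010467.1 held 58.3% of all counts in heart and 72.5 to 73.5% in liver, whereas mt-Rnr2 held 10.2% in heart and 2.34 to 2.57% in liver. Of the remaining counts, 50% lay on 86 genes in heart and on 178 to 183 genes in liver.

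The 5 marker genes went with the tissue labels of all 4 libraries. Myh6, the alpha myosin heavy chain of the adult mouse heart (chr14:54941921-54966927, minus strand, GRCm38), had 27235 CPM in heart and 0 counts in each of the 3 liver libraries. Against a floor of 3 counts per library, which a count of 0 allows, Myh6 was at least 27381-fold higher in heart. Actc1, cardiac alpha actin (chr2:114047282-114053548, minus strand), had 6302 CPM in heart and 0.646, 0 and 0 CPM in liver replicates 1, 2 and 3. Its liver counts were 2, 0 and 0, which puts the ratio at 29286-fold (interval 7899.6 to 235666). Intervals of ratios are exact binomial (Clopper-Pearson) at 95% and cover counting error only, since reads amplified by PCR are not independent molecules. Tnnt2, cardiac troponin T (chr1:135836354-135852260, plus strand), had 3816 CPM in heart against 0, 0.346 and 0.326 CPM in liver, a ratio of 17039.6-fold (interval 4783 to 142704). The heart markers were thus at or within 2 counts of absence in every liver library. Alb, serum albumin (chr5:90460897-90476602, plus strand), had 58855, 59428 and 59643 CPM in liver and 219 CPM in heart, where 950 counts were assigned to it. Alb was 270.5-fold (interval 254 to 289) higher in liver. Apoa1, the main protein of high density lipoprotein (chr9:46228580-46230466, plus strand), had 5347, 5226 and 5194 CPM in liver and 23.5 CPM in heart, a ratio of 223-fold (interval 184 to 274). Both liver markers were therefore far lower in heart but well above 0 there.

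**Figure D1:**
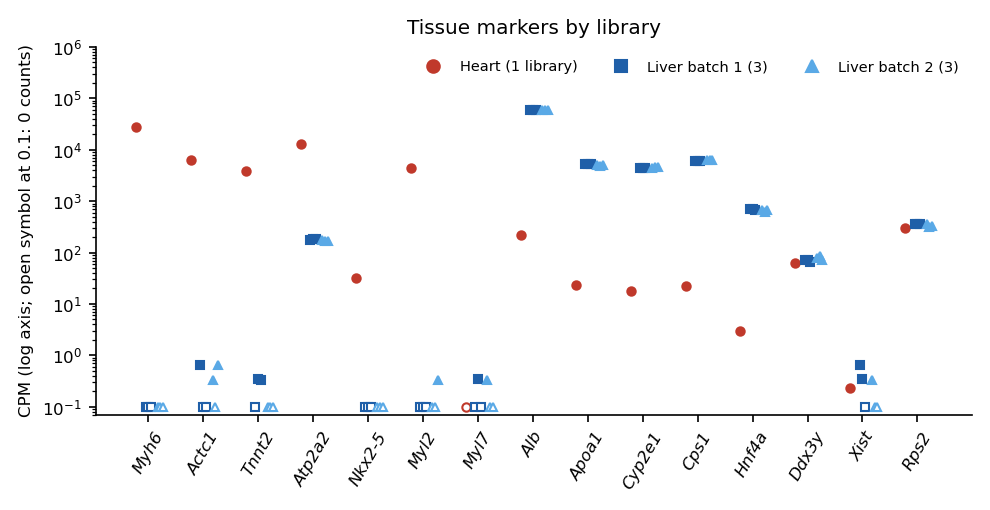
Levels of 15 genes in each unselected library, in CPM on a log axis (circles, 1 heart library; squares, 3 liver libraries of batch 1; triangles, 3 liver libraries of batch 2); open symbols mark 0 counts and are drawn at 0.1. Myh6 stands at 27235 CPM in heart and at 0 in all 6 liver libraries, Alb at 219 CPM in heart and near 59309 CPM in liver, and the Y-linked Ddx3y at similar levels in both tissues.

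The proximal promoters of 4 markers are printed because they hold matches to short motifs known from tissue-restricted genes. Each is the 250 bases before the RefSeq start site on the coding strand (RefSeq, GRCm38.p6), in lower case, with matches in capitals. The gene spans of Myh6 and Actc1 given above are from GENCODE and run past these windows, because that set holds short transcripts that start further upstream. The capitals mark an M-CAT element (CATTCC, read on the other strand in Myh6) in Myh6 and Tnnt2, a CArG box in Actc1, and a C/EBP match (TTGCNNAA, read on the other strand) followed by an HNF1 motif (GTTAAT) in Alb. The windows lie at chr14:54966608-54966857 (minus strand), chr2:114052876-114053125 (minus strand), chr1:135836084-135836333 (plus strand) and chr5:90460620-90460869 (plus strand).
Myh6: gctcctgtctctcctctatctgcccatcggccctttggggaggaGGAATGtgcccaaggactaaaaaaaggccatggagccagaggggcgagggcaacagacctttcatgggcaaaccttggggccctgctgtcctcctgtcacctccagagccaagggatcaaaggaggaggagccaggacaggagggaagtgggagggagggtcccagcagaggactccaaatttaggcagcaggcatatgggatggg
Actc1: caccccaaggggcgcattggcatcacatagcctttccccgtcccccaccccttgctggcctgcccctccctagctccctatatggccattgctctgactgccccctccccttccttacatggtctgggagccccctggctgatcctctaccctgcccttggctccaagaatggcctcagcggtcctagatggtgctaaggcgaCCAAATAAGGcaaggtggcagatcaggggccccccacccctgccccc
Tnnt2: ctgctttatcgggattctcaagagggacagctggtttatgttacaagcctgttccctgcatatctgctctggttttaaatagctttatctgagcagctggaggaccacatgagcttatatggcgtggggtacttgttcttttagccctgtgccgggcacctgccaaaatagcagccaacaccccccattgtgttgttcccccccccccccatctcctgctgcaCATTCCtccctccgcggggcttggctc
Alb: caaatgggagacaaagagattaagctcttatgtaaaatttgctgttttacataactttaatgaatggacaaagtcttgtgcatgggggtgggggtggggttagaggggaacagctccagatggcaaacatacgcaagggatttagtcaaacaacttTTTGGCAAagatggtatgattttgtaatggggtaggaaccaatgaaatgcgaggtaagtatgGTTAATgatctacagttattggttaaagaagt

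The same search over both strands covered 27025 promoter windows of 250 bases. M-CAT elements were found in 32.4% of the 34 windows of sarcomere genes, in 17.5% of those of secreted liver proteins and in 12.6% of all windows. CArG boxes, bound by serum response factor, were in 20.6% of the sarcomere windows and 1.40% of all, and MEF2 boxes, bound by the Mef2 factors, in 17.6% and 3.01%. Windows of 57 genes for secreted liver proteins held an HNF1 motif in 31.6% and a C/EBP match in 28.1%, against 6.52% and 9.55% of all windows. Windows were found for 34 of 41 sarcomere genes and 57 of 74 secreted liver proteins. In the larger sets of all called protein-coding genes with a window, 9.62% of 1050 liver-high windows held the HNF1 motif and 4.35% of 1240 heart-high windows a MEF2 box. Over all 9092 windows of counted protein-coding genes the shares were 4.03% for HNF1, 1.76% for MEF2, 7.42% for C/EBP, 10.5% for M-CAT and 1.22% for CArG. M-CAT elements were in 13.1% of heart-high and 12.8% of liver-high windows, CArG boxes in 2.02% and 1.52%, C/EBP matches in 6.77% and 12%, and the Gata element in 4.6% and 8.1%. The search also took in the promoter core element TATAAA, the binding element of the ERR receptors, TCAAGGTCA, and that of the Gata factors, GATAAG. The Gata element was in 14.7% of sarcomere windows and 14.0% of secreted liver windows, against 6.6% of all. None of the 8 motifs was found in the 250 bases before Apoa1. Motif matches may overlap one another. A match is a description of letters, and binding was not measured.

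A gene was called heart-high where its heart CPM was at least 4 times the mean liver CPM and above all 3 liver libraries, and liver-high in the reverse case. For calls and log2 ratios, values under 3 counts were raised to 3 counts, so a log2 ratio that involves them is a bound. Fold values with an interval are plain ratios of the counts per library total, without that floor, and rest on few counts where a gene was nearly silent in 1 tissue. Of 12051 genes with a mean of at least 10 counts, 1795 (14.9%) were heart-high and 1468 (12.2%) liver-high, 27.1% in all. Counts of calls in the lists below are to be read beside these shares. Protein-coding genes made up 1695 of the former and 1371 of the latter. The median log2 ratio of heart over liver was 0.12 over all genes counted. The split depends on the settings. Liver-high genes were the larger group at 8-fold (1058 against 947 heart-high, 47.2% of the calls) and with a mean count of at least 50 (1058 against 1017, 49.0%). With CPM of all counts, heart-high genes made up 65.0% of the calls instead of 55.0%, and the median moved up by 0.43. With all mitochondrially encoded genes left out, the share was 61.8% and the median moved up by 0.27. Each of 3 liver libraries from batch 2 was put through the same rule against batch 1, and 7, 10 and 13 genes passed (0.0663%, 0.0949% and 0.123%).

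**Figure D2:**
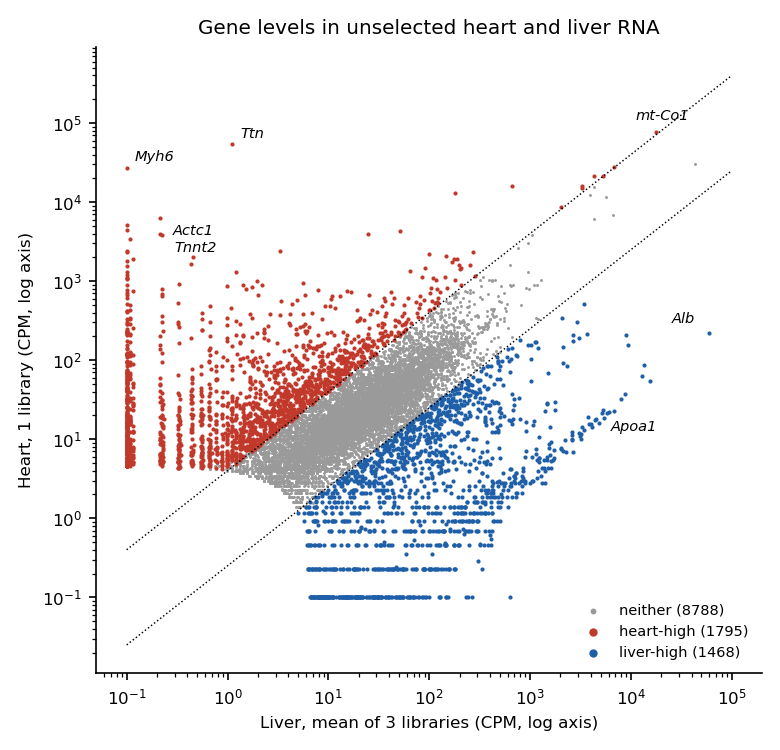
Level of each of the 12051 genes counted in heart (1 library) and liver (mean of 3 libraries), in CPM on log axes with values under 0.1 drawn at 0.1; dotted lines mark 4-fold. Red points are the 1795 heart-high genes and blue points the 1468 liver-high genes, and gray points are neither.

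The sarcomere is the contractile unit of muscle. Of its 41 listed genes, 38 passed the count filter and were heart-high, where 14.9% of all genes counted were. A mean liver count under 10 was found for 34 of the 38, so they passed only through the heart library, and the count is a description that the filter partly fixes. The same holds for 81 of 116 counted members of all heart lists, and, with heart counts under 10, for 91 of 241 of all liver lists. Together the 41 genes held 12.3% of the heart counts (Wilson 95% interval 12.26 to 12.32%) and 0.0134% ± 0.000373 (SD, n = 3) of the liver counts. The Wilson interval covers counting error of this library only. Their median log2 ratio was 8.99, with members at the floor counted at their bound. The 3 genes outside the filter were Myl4, Myl7 and Tnni1, with 0.462, 0 and 0.231 CPM in heart.

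In the thick filament, 10 of 12 genes were heart-high and the other 2 were Myl4 and Myl7. Titin (Ttn), the giant spring protein that spans the sarcomere from Z-disc to M-line, had 53579 CPM in heart and 1.61, 1.04 and 0.652 CPM in liver, a ratio of 48654-fold (interval 26385 to 101191). It had the second highest CPM of the heart-high genes, but a transcript of great length collects many reads. Per kb of transcript, Ttn stood at 534 CPM and Myh6 at 4455 CPM in heart. Myl2, the ventricular regulatory light chain, had the highest level per kb in the list, 4942 CPM. In CPM, Myl2 had 4394 in heart and 0 in all liver libraries, at least 4417-fold higher. The essential light chain Myl3 stood at 2324 CPM and the myosin-binding protein Mybpc3 at 2439 CPM, again with 0 counts in every liver library. Myh7, the beta myosin heavy chain that prevails in the fetal mouse ventricle, stood at 154 CPM in heart and 0 in liver. Per kb, the heart held 24.7 CPM of Myh7 against 4455 CPM of Myh6.

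Thin filament genes split in the same way, with 10 of 11 heart-high and a median log2 ratio of 8.38. Tpm1, the tropomyosin that gates myosin binding, had 3960.4 CPM in heart and 21.3, 25.9 and 26.7 CPM in liver, 161-fold higher in heart. Unlike the troponins it was present in every liver library. Tnni3, the cardiac inhibitory troponin, had 1796 CPM in heart and 0 in the 3 liver libraries, at least 1806-fold higher. Skeletal actin Acta1 had 52.2 CPM in heart, with 0 in liver, so cardiac Actc1 was the main sarcomeric actin per kb (4279 against 36.1 CPM).

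All 18 Z-disc and costamere genes were heart-high, with log2 ratios from 2.43 to 10.60. Actn2, the alpha actinin that crosslinks thin filaments at the Z-disc, had 1548 CPM in heart and 0 in liver, at least 1556-fold higher. Tcap, which caps titin at the Z-disc, had 763 CPM and was likewise at 0 in liver. The small heat shock protein Cryab, a chaperone of desmin, had 789 CPM in heart and 2.58, 0.346 and 1.63 CPM in liver. Csrp3, muscle LIM protein, had 589.7 CPM in heart but also 10.0, 9.34 and 12.4 CPM in liver, so its ratio, 55.8-fold, was among the lower ones of the list. Of these 4 genes, Csrp3 alone had over 20 counts in each liver library.

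Calcium handling genes followed the sarcomere. Of 18 genes, 16 passed the filter and 15 were heart-high, with a median log2 ratio of 6.74. Atp2a2, the SERCA pump that returns calcium to the reticulum, had 13114 CPM in heart and 175, 182 and 187 CPM in liver. It was 72.3-fold (interval 68.8 to 76) higher in heart, although liver also uses it. Pln, phospholamban, the muscle inhibitor of that pump, had 3399 CPM in heart and 0, 0 and 0.326 CPM in liver, where a single count was found. Hrc, which binds calcium inside the reticulum, had 749 CPM in heart and 1 count in the 3 liver libraries together. S100a1, a calcium sensor, was 4.55-fold higher in heart, with 224 CPM against 49.1, 47.7 and 51.2 CPM. Asph, the only counted member not called, had 172 CPM in heart and 50.7 ± 7.07 CPM in liver (SD, n = 3), a log2 ratio of 1.76. Sln and Fkbp1b did not pass the filter, and Sln, the atrial pump inhibitor sarcolipin, had 0 counts in all 4 libraries.

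Ion channels and cell junctions were mixed in how strongly they separated the tissues. Of 25 genes, 23 were counted, 20 were heart-high and none was liver-high. The potassium channel subunit Kcnip2 had 115 CPM in heart and 0, 0.346 and 0 CPM in liver. Gap junction protein Gja1 (connexin 43) was 118-fold higher, with 521 CPM against 3.87, 3.46 and 5.87 CPM. Desmoplakin (Dsp) was 10.9-fold higher in heart, 1906 against 174 ± 9.20 CPM in liver. The 3 genes not called were Cdh2, Pkp2 and Dsg2, which epithelia also use. N-cadherin (Cdh2) had 372 CPM in heart and 144 ± 4.37 CPM in liver, plakophilin Pkp2 108 and 51.1 ± 3.10 CPM, and desmoglein Dsg2 144 and 195 ± 12.5 CPM. Of the other members, 2 did not pass the filter, Kcne1 among them.

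Of the cardiac transcription factors, 20 of 21 were counted and 19 of them were heart-high, but with lower ratios than the sarcomere: the median log2 ratio was 3.11, and 10 passed at 8-fold. Nkx2-5 and Tbx5, which specify the heart in the embryo, had 31.4 and 30.2 CPM in heart and 0 in every liver library. Nkx2-5 was at least 31.6-fold higher and Tbx5 at least 30.4-fold. Smyd1, a muscle methyltransferase, was 147-fold higher (388 against 3.23, 2.08 and 2.61 CPM). Mef2a and Mef2d were also present in liver: Mef2d had 216 CPM in heart and 51.6, 54.3 and 46.3 CPM in liver, 4.26-fold higher, just past the rule. Mef2a had 209 against 48.4, 49.1 and 53.8 CPM and fell just under the rule with TMM or DESeq2 scaling (log2 ratios 1.97 and 1.98). Hopx, a homeodomain protein without DNA binding, had 144 against 23.6, 24.9 and 22.2 CPM. The nuclear receptor Esrra, a regulator of mitochondrial genes, was the counted member not called, with 81.7 CPM in heart and 21.6 ± 1.41 CPM in liver (log2 ratio 1.92). Hand1 did not pass the filter.

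Lists for both chamber types were mostly heart-high, and some atrial genes were absent. All 11 counted ventricular genes of 12 were heart-high, Myl2, Myl3, Pln and Gja1 among them, and the list held 1.09% of the heart counts. Of the atrial genes, Myl7 and Sln had 0 counts, Myl4 had 2 counts and Bmp10 had 0. A count of 0 of the 4.33 M counts allows up to 0.692 CPM. Atrial natriuretic peptide Nppa, which the ventricle also makes at a low level, had 41.1 CPM in heart and 0 in liver. Of the 13 atrial genes, 9 were counted, with a median log2 ratio of 4.01. Of these, 7 were heart-high, the potassium channel genes Kcnj3 (74.6 CPM in heart) and Kcnj5 (69 CPM) with 0 counts in liver among them, and 1, the lipid transfer gene Stard10, was liver-high at 12.2 against 494, 477 and 473 CPM. Pam, which amidates peptides and is abundant in atria, was 16.2-fold higher in heart, and the venous and atrial factor Nr2f2 was not called (18.9 CPM in heart, 51 ± 4.70 CPM in liver). The labels do not say which part of the heart was taken.

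Of the natriuretic peptides and linked genes, 4 of 5 were heart-high. Nppb, brain natriuretic peptide, had 45.2 CPM in heart and 0 in all liver libraries, at least 45.5-fold higher. Corin, the protease that activates natriuretic peptides, had 232 CPM in heart and 0, 0.692 and 0 CPM in liver. The peptide receptor Npr1 was not called, with 21.9 CPM in heart and 12.6, 17.6 and 20.2 CPM in liver, where the heart value was the highest of the 4.

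All 7 genes of oxygen storage and the creatine shuttle, which carries high-energy phosphate from mitochondria to myofibrils, were heart-high. Myoglobin (Mb) had 5131 CPM in heart and 0 in liver, at least 5158-fold higher. Mitochondrial creatine kinase Ckmt2 had 1081 CPM and cytosolic Ckm 1075 CPM in heart, with 0 counts of both in all liver libraries. The heart ATP/ADP carrier Slc25a4 had 2417 CPM in heart and 4.20, 3.11 and 2.61 CPM in liver, 731-fold higher.

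Mitochondrial transcripts were higher in heart from both genomes. The 13 mRNAs encoded by mitochondrial DNA held 20.9% of the heart counts and 4.62% ± 0.103 (SD, n = 3) of the liver counts. All 13 were at least 2-fold higher in heart, as were 27.5% of all genes counted. mt-Co1, a catalytic subunit of complex IV, had 77062 CPM in heart and 17428, 17937 and 18116 CPM in liver, 4.32-fold higher. mt-Cytb of complex III had 27422 against 6545, 6782 and 6984 CPM, and mt-Nd1 of complex I 15962 against 3089.5, 3281 and 3377 CPM. The complex I subunits mt-Nd4 and mt-Nd5 were at 21669 and 21303 CPM in heart and at 5307 and 4353 CPM in liver, and mt-Co3 of complex IV was at 8675 against 2025 CPM. Apart from mt-Co2 the log2 ratios lay between 1.67 and 2.66, around the 4-fold line, so the count of calls was unstable: 9 of 13 with liver batch 1 as the reference and 4 of 13 with liver batch 2. The calls for mt-Cytb and mt-Nd4 were also lost with TMM (log2 ratios 1.93 and 1.94) and DESeq2 scaling (1.95 and 1.96), and both fell just under 4-fold without liver replicate 1. mt-Co2 had 15913 CPM in heart and 959.8, 689.6 and 340.0 CPM in liver, 24-fold higher. This ratio is not of the gene alone, because reads can be exchanged with an identical nuclear copy on chromosome 1. The pseudogene Gm28661 matches mt-Co2 over 681 bases without a mismatch and was assigned 6135 CPM in heart and 4267 CPM in liver. Summed with its copy, mt-Co2 was 4.47-fold higher in heart, near the rest of the list. Gm10925 is an equally exact copy of mt-Atp6 over 678 bases and Gm28437 of mt-Co3 over 783 bases, and the summed ratios were 3.52-fold and 4.47-fold. Values of these 3 mitochondrial genes are therefore uncertain one by one. The mitochondrial ribosomal RNAs left out above were also a larger share of all counts in heart.

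Nuclear genes of the respiratory chain were mostly higher in heart, by a smaller step. Of 76 genes, 74 had a higher CPM in heart. At least 2-fold higher were 68 of the 76, where 27.5% of all genes counted were. Yet only 14 of the 76 were heart-high, a share not far above the 14.9% of all genes counted, and 1 was liver-high. The median log2 ratio was 1.63, and together the genes held 2.36% of heart counts and 0.733% ± 0.00264 (SD, n = 3) of liver counts. Heart-high calls rose to 39 with CPM of all counts and to 30 with mitochondrially encoded genes left out, since many members lie just under 4-fold. In complex I all 36 nuclear subunits were higher, 34 of them at least 2-fold, and 6 were heart-high, a share near the 14.9% of all genes counted. Ndufb8 had 293 CPM in heart and 65.9, 70.2 and 60.6 CPM in liver, whereas Ndufb9 had 286 against 121, 125 and 112 CPM and was not called, nor was Ndufa3 (144 and 48.6 ± 0.713 CPM). In complex III, 1 of 10 was heart-high, a call lost with TMM or DESeq2 scaling, whereas 5 were called with CPM of all counts. Uqcrc1, Uqcrh, Uqcrb and Uqcr11 had log2 ratios of 1.95, 1.49, 1.40 and 1.11. In ATP synthase, 2 of 15 were heart-high, again near 14.9%. Atp5b, the catalytic beta subunit of ATP synthase, had 3006 CPM in heart and 964, 932 and 997 CPM in liver. Atp5a1, Atp5g3 and Atp5h had log2 ratios of 1.82, 1.48 and 1.83.

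Complex IV departed furthest in subunits that exist in muscle and liver forms. Of 15 nuclear subunits 5 were heart-high and 1 liver-high, against 14.9% and 12.2% of all genes counted. A mean liver count under 10 was found for 4 of the 15, Cox6a2 and Cox7a1 among them. These 4 passed the filter only through the heart library, so the filter partly fixes the count. Cox6a2, the muscle form, had 669 CPM in heart and 0 in all liver libraries, at least 673-fold higher. Its liver counterpart Cox6a1 had 32.3 CPM in heart and 141, 125 and 122 CPM in liver, a log2 ratio of -2.0 that sits on the threshold and was not called with CPM of all counts, with mitochondrially encoded genes left out, with liver batch 2 as the reference or without liver replicate 1 (log2 ratios -1.57, -1.73, -1.93 and -1.93). Cox7a1, also a muscle form, had 343 CPM in heart and 0.646, 0.692 and 1.63 CPM in liver. Other subunits were closer to the rest of the chain: Cox4i1 and Cox6b1 had log2 ratios of 1.77 and 1.46.

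Of 23 genes of the tricarboxylic acid cycle and pyruvate oxidation, 10 were heart-high, where 14.9% of all genes counted were, and none was liver-high. Their median log2 ratio was 1.71. Idh2 had 1119 CPM in heart and 85.9, 87.2 and 81.2 CPM in liver, 13.2-fold higher. Ogdh, the E1 subunit of the 2-oxoglutarate dehydrogenase complex, was 8.47-fold higher (2313 against 274, 271 and 274 CPM). Sdha, shared with complex II, was not called (1044 CPM in heart, 444 ± 21.6 CPM in liver). The called members thus did not include every step, and Suclg2 of succinyl-CoA synthetase had a log2 ratio of -0.70.

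**Figure D3:**
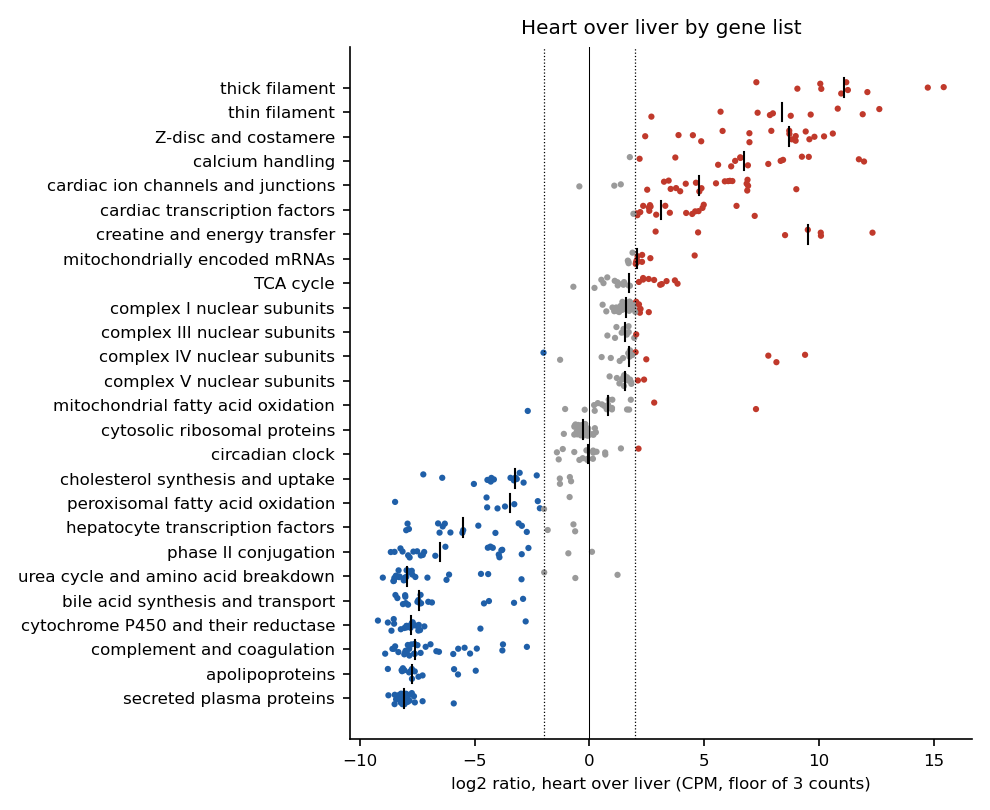
Log2 ratio of heart over liver for every counted member of 26 gene lists; red and blue points are heart-high and liver-high genes, gray points neither, short bars list medians and dotted lines 4-fold. Medians run from 11.08 in the thick filament to -8.07 in secreted plasma proteins, with the nuclear respiratory complexes between 1.55 and 1.74 and the ribosomal proteins at -0.28.

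Genes for related enzymes and carriers were compared in 21 pairs, chosen with earlier results of these data known. Each pair was labelled with a muscle form and a liver form. These are names of the comparison, and not every partner is a liver isoform. The muscle form was heart-high in 20 pairs, the liver form liver-high in 12, and both in the same 12. Levels per kb of transcript gave the share of the muscle form in its pair: it was above 50% in heart and below 50% in liver in all 21 pairs. The choice of pairs partly fixes this result. Fatty acid binding protein had the clearest contrast. Fabp3 had 1902 CPM in heart and 0, 0.346 and 0 CPM in liver, and Fabp1 had 6.92 CPM in heart and 2585, 2658 and 2684 CPM in liver, so Fabp3 was 99.5% of the pair in heart and 0.00293% in liver. In glycolysis and glycogen metabolism the share moved in the same direction, although Eno1, Pgam1 and Ldha, the partners in 3 pairs, were not called. The partners Pfkl and Phka2, given below, were not called either. The muscle form's share went from 0.286% in liver to 99.6% in heart for the insulin-responsive glucose transporter Slc2a4 against Slc2a2. It went from 0.291% to 99.6% for glycogen phosphorylase Pygm against Pygl, from 0.649% to 97.9% for glycogen synthase Gys1 against Gys2, and from 16.1% to 100.0% for pyruvate kinase Pkm against Pklr. Lactate dehydrogenase was 80.4% Ldhb in heart and 0.630% in liver, enolase 89.8% and 0.765% Eno3 (against Eno1), and phosphoglycerate mutase 91.9% and 0% Pgam2 (against Pgam1).

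Mitochondrial pairs behaved alike, but some liver forms were no lower in heart. Cox6a2 was 94.6% of its pair in heart and 0% in liver, Cox7a1 80.0% and 1.64% (against Cox7a2), Cox8b 88.2% and 0% (against Cox8a), and Slc25a4 92% and 0.826% (against Slc25a5). Idh2 made up 97.1% of the pair with the cytosolic Idh1 in heart and 22.5% in liver. Liver forms of 3 pairs had a higher CPM in heart than in liver, none of them called: Cox7a2 (log2 ratio 0.53), phosphofructokinase Pfkl (1.74) and pyruvate dehydrogenase kinase Pdk2 (1.83). In those pairs the shift in share came from the muscle forms. Pfkm was 91.4% of its pair in heart and 42% in liver, and Pdk4 59.4% and 5.10%. The pair without a heart-high muscle form was phosphorylase kinase alpha, where Phka1 was 56.4% in heart and 20.0% in liver, with log2 ratios of 1.72 for Phka1 and -0.65 for Phka2.

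**Figure D4:**
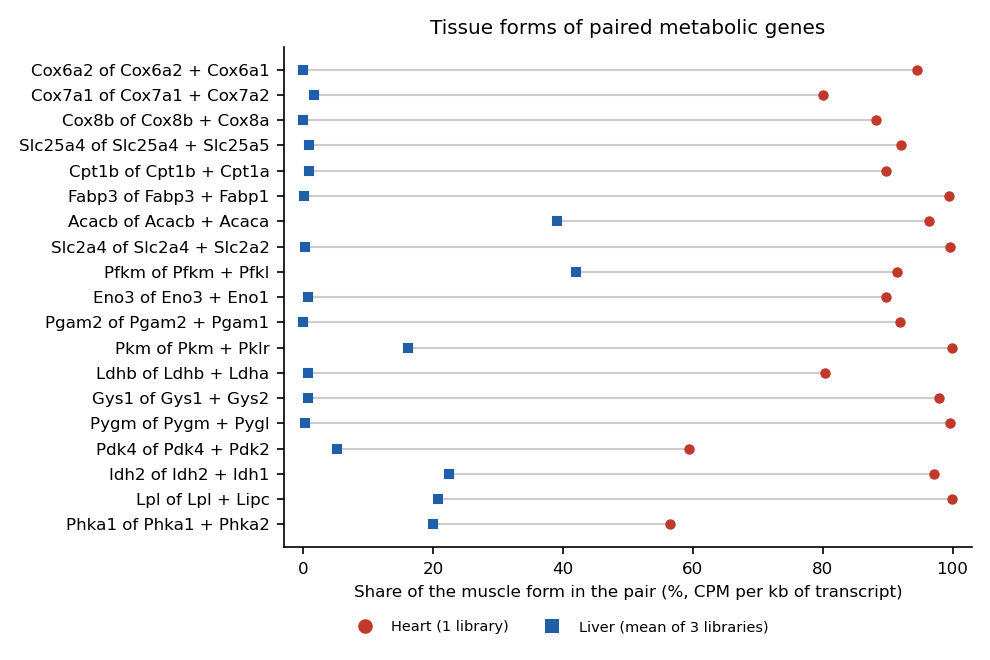
Share of the muscle form in 19 of the 21 gene pairs, from CPM per kb of transcript, in heart (red circles, 1 library) and liver (blue squares, mean of 3 libraries). Heart shares lie above 50% and liver shares below 50% in all 19 pairs, from 0.00293% to 99.5% for Fabp3 and from 20.0% to 56.4% for Phka1.

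Fatty acid handling split by step. Of 15 uptake and activation genes, 5 were heart-high and 6 liver-high, against 14.9% and 12.2% of all genes counted. Lipoprotein lipase (Lpl), which frees fatty acids from circulating lipoproteins, had 4273 CPM in heart and 49.7, 53.3 and 50.5 CPM in liver, 83.5-fold higher, and was 100.0% of the pair with the hepatic lipase Lipc in heart and 20.7% in liver. Acsl1, which activates long-chain fatty acids, was not called, and its sign turns with CPM of all counts: 894 CPM in heart and 1172 ± 22.1 CPM in liver (SD, n = 3). Cpt1, the gate of entry into mitochondria, changed form, with Cpt1b at 565 CPM in heart and 3.87, 6.23 and 0 CPM in liver, and Cpt1a at 96.9 CPM in heart and 621, 634 and 617 CPM in liver. The list of mitochondrial oxidation genes, which includes Cpt1a and Cpt1b, leaned to heart by a smaller step. Of its 19 genes 16 were higher there, with a median log2 ratio of 0.81, and 5 were at least 2-fold higher. As calls, 2 were heart-high (Cpt1b and Hadhb) and 1 liver-high (Cpt1a). The shares at 2-fold and of heart-high genes were near or below those of all genes counted, 27.5% and 14.9%. Heart-high calls rose to 5 with CPM of all counts. The trifunctional protein subunit Hadhb was 7.07-fold higher in heart (1416 against 184, 206 and 211 CPM), whereas Acadm (1.64), Etfb (0.84) and the thiolase Acaa2 (-0.21) had log2 ratios inside 4-fold, and the sign of the last turns with CPM of all counts. Peroxisomal oxidation was a liver group, with 8 of 10 genes liver-high and all 10 lower in heart. Cat, catalase, had 209 CPM in heart and 2695, 2699 and 2621 CPM in liver, 12.8-fold higher in liver, and Scp2 was 16-fold higher and the thiolase Acaa1b 354-fold.

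Ketone bodies are made in liver and burned in heart, and 1 of the 2 genes listed for their use was heart-high. Oxct1, the transferase needed to use ketone bodies, had 952 CPM in heart and 3.87, 6.57 and 6.52 CPM in liver, 168-fold (interval 128 to 228) higher in heart. The reversible enzymes Bdh1 (92.1 CPM in heart, 177 ± 5.41 CPM in liver) and Acat1 (358 and 284 ± 10.4 CPM) were not called.

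Of 17 genes for fatty acid and triglyceride synthesis, 8 were liver-high and 1 heart-high. Scd1, the stearoyl-CoA desaturase, had 63.9 CPM in heart and 12829.6, 12739 and 12653 CPM in liver, 199-fold higher in liver, the fourth highest CPM of the liver-high genes. Elovl5 was 21.2-fold higher in liver, while Dgat2 and Gpam were not called (log2 ratios -0.51 and 0.06, the second of which turns with the scale). The heart-high gene was Acacb, whose product makes the malonyl-CoA that inhibits Cpt1: it had 528 CPM in heart and 125, 125 and 119 CPM in liver. Its counterpart Acaca, which feeds synthesis, was liver-high (21.7 against 217, 196 and 209.5 CPM), and the Acacb share of the pair was 96.3% in heart and 39.1% in liver. Of 18 genes of cholesterol synthesis and uptake, 14 were liver-high and all 18 were lower in heart. Sc5d was 32.7-fold higher in liver, Insig1 19.7-fold and Fdps 10.8-fold.

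Secreted proteins were the largest liver group by counts. Of 74 genes for plasma proteins, apolipoproteins and complement or coagulation factors, 73 were counted and all 73 were liver-high, against 12.2% of all genes counted. They held 21.7% ± 0.0527 (SD, n = 3) of the liver counts and 0.143% of the heart counts. The gene not counted was A1bg. Trf, transferrin, had 87.5 CPM in heart and 13636, 13440.1 and 13375 CPM in liver. Apob, the scaffold of very low density lipoprotein, had 53.8 against 15069, 15309 and 15814 CPM, and Apoe 157 against 9620.4, 9359 and 9067 CPM. Per kb of transcript the liver order ran from Alb (29159 CPM) through Apoe (6639.8), Apoa2 (5976) and Trf (5244) to Apoa1 at 5078. The protease inhibitors Serpina1e, Serpina3k, Serpina1c and Pzp had 7956, 6754, 5454 and 8645 CPM in liver and between 18.8 and 37.9 CPM in heart. The Serpina1 genes are near copies of each other, so the split of reads among them is uncertain. Complement C3 had 208 CPM in heart and 9047, 8977 and 8975 CPM in liver, a ratio of 43.4-fold (interval 40.6 to 46.4) that was far below those of plasminogen (Plg, 261-fold), prothrombin (F2, 477-fold) and Serpinf2 (196-fold). The ratio for Apoe was 59.6-fold, beside 279-fold for Apoa2 and 267-fold for Apoc1. Apoa4 and Mttp, which loads lipid onto Apob, had lower ratios still, 31-fold and 52.9-fold.

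Many abundant genes of the liver lists had similar ratios. Of 64 genes on the liver lists with at least 1000 CPM in liver, 52 had a heart level between 0.2% and 0.8% of the liver level, with a median of 0.396% over the 64 and a range from 0.195% to 15.1%. Genes outside the liver lists were less uniform: of 34 nuclear protein-coding genes at that liver level, 13 lay in the window and 21 above it, with a median of 1.58%. Alb was at 0.370%, Cps1 at 0.367%, Cyp2e1 at 0.401% and Mup3 at 0.439% of their liver levels. This window and the 1000 CPM line were set after the values had been seen. Listed genes well above it included C3 (2.31%), Apoe (1.68%) and Gstm1 (7.01%). Of 199 liver-list genes with at least 100 CPM in liver, 47 had a heart level above 2% of the liver level. In the other direction, the 23 genes of the heart lists with at least 1000 CPM in heart summed to 146058 CPM in heart and to 383, 399 and 386 CPM in liver. Most of the liver sum came from Atp2a2 and Dsp. Without Atp2a2, Tpm1, Dsp, Des and Slc25a4, which were set aside with their liver levels known, the other 18 genes summed to 535724 counts in heart and to 13, 10 and 9 counts in liver replicates 1, 2 and 3, which is 0.00237 to 0.00339% of the heart level in CPM. The source of these low levels was not tested, and the liver-over-heart folds count these reads as heart level whatever their source. Hepatocyte factor Hnf4a was in the same range (0.429% of its liver level, 13 counts).

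Of the hepatocyte transcription factors 15 of 18 were liver-high, and all 18 were lower in heart. Hnf4a, the main nuclear receptor of hepatocyte identity, had 3.00 CPM in heart and 710.2, 700.4 and 686 CPM in liver, 233-fold (interval 136 to 438) higher. The xenobiotic receptor Nr1i3 had 0.462 CPM, or 2 counts, in heart and 178, 173 and 174 CPM in liver. Creb3l3, which drives secretory and lipid genes, had 1.15 against 284, 281 and 276 CPM. Rxra, the common partner of nuclear receptors, was 6.63-fold higher in liver, with 74.6 CPM in heart. The 3 factors not called were Prox1 (132 CPM in heart, 214 ± 8.33 CPM in liver), Tcf7l2 (21.9 and 33.7 ± 2.77 CPM) and Nr0b2 (4.39 and 15.5 ± 2.23 CPM).

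Drug and bile acid metabolism were liver-high almost throughout. All 22 genes for cytochrome P450 enzymes, their reductase included, were liver-high, with a median log2 ratio of -7.78. Cyp3a11, the main drug-metabolising form, had 21.5 CPM in heart and 5631, 5716 and 5848 CPM in liver, 267-fold higher, and the ethanol-inducible Cyp2e1 18 against 4477, 4492 and 4512 CPM. Cyp2c29 and Cyp2f2 were 369-fold and 173-fold higher. All 18 bile acid genes were liver-high, among them the uptake carriers Slc10a1 (1.15 against 364, 394 and 384 CPM) and Slco1b2 (239-fold higher) and the conjugation enzyme Slc27a5 (349.9-fold higher). Hsd3b7 had a smaller ratio, 24.1-fold. Conjugation enzymes of phase II were liver-high in 22 of 24 counted genes, of 25 listed. Gsta3 and Ugt2b5 were 147-fold and 402-fold higher, but Gstm1 and Gstp1, which heart also uses, were 14.3-fold and 21.5-fold higher with 148 and 69.6 CPM in heart. Gstm2 and Gsta4 were not called (log2 ratios 0.11 and -0.92), and the genes of this family are similar enough to share reads.

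Of 28 genes of the urea cycle and amino acid breakdown, 25 were liver-high. Cps1, the entry enzyme of the urea cycle, had 22.4 CPM in heart and 6077, 6072 and 6146 CPM in liver, 272-fold higher. Ass1 had 19.4 against 3759, 3673 and 3725 CPM, the methyl group regulator Gnmt 5.54 against 1177, 1174 and 1145 CPM, and Hpd of tyrosine breakdown 6.00 against 1474, 1449 and 1471 CPM. Got1, the cytosolic transaminase that both tissues use in the malate-aspartate shuttle, had a higher CPM in heart (481 against 206 ± 7.95 CPM, SD, n = 3) without passing the rule. Glul (329.6 and 504 ± 17.4 CPM) and Sdsl (2.08 and 8.14 ± 1.41 CPM) were not called either. All 14 genes of gluconeogenesis and hepatic glucose handling were liver-high. Pck1, its committed enzyme, had 9.69 CPM in heart and 2542, 2639 and 2602 CPM in liver, and Fbp1 and G6pc, which frees glucose for export, were 196-fold and 198-fold higher. Major urinary proteins, carriers of pheromones secreted by mouse liver, had 14 of 22 genes counted and all 14 liver-high. Mup3 and Mup20 had 3257 and 2579 CPM in liver and 14.3 and 10.2 CPM in heart. Mup22 and Mup14 belong to the block of near-identical copies, so their values (1420.2 and 407 CPM in liver) are uncertain one by one.

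Ribosomal protein genes were at similar levels in both tissues. None of 43 cytosolic ribosomal protein genes was called. Their median log2 ratio was -0.28, with 39 lower and 4 higher in heart, but the sign turns to 0.15 with CPM of all counts. Rps2 had 299 CPM in heart and 357, 355 and 355 CPM in liver, and Rplp1, Rpl7a and Rps18 had log2 ratios of -0.61, -0.47 and -0.65. Of 18 counted circadian clock genes, 1 was called, Bhlhe41, with 45.7 CPM in heart and 9.68, 10.4 and 11.1 CPM in liver, and it was not called with liver batch 2 as the reference (log2 ratio 1.85). The repressor Nr1d1 had 163 CPM in heart and 183, 183 and 169.8 CPM in liver, and the output factors Dbp (119.6 and 96.5 ± 6.33 CPM) and Tef (158 and 193 ± 8.93 CPM) were close as well. The signs for Nr1d1 and Tef turn with the scale. Rora had 63 CPM in heart and 141 ± 0.227 CPM in liver. The labels describe 1 animal and the time of day of collection was not used here. Of 14 counted immediate early genes, which respond within minutes to stress, 2 were heart-high, a share near the 14.9% of all genes counted. At least 2-fold differences were found for 10 of the 14, 7 higher and 3 lower in heart, where 48.1% of all genes counted differed by as much. Jun had 53.8 CPM in heart and 15.5, 10.0 and 13.7 CPM in liver, and Ier3 15.2 against 0.323, 2.08 and 0.652 CPM. Jun was no longer called with TMM or DESeq2 scaling (log2 ratios 1.96 and 1.97) or without liver replicate 2 (1.88), while Dusp1, Jund and Zfp36 had log2 ratios of 0.56, -0.04 (its sign turns with the scale) and -1.69. The handling times of the tissues are not given in the labels.

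None of 6 counted structured noncoding RNAs was called. The signal recognition particle RNA Rn7s1 had 30347 CPM in heart and 44342, 43858 and 41908 CPM in liver, and Rn7sk, which restrains transcription elongation, 6874 against 6799.6, 6722 and 6595 CPM. Rpph1 and Rmrp, the RNAs of RNase P and MRP, had log2 ratios of -0.30 and -0.21. The signs for Rn7sk, Rpph1 and Rmrp turn with the scale.

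Y-linked genes were present in all libraries. Ddx3y had 62.8 CPM in heart and 70.7, 71.6 and 65.8 CPM in liver, Eif2s3y 39.9 against 36.8, 38 and 38.1 CPM, Uty 35.8 against 29.7, 32.2 and 31 CPM and Kdm5d 23.8 against 29.4, 29.7 and 30.3 CPM. None was called, and the signs for Ddx3y, Eif2s3y and Kdm5d turn with the scale. Xist, the RNA of the inactive X, had 0.231 CPM in heart and 0.646, 0.346 and 0 CPM in liver, at most 2 counts in a library. The labels give the mouse as male in the text on husbandry and as female in a characteristics field, and the transcripts go with the former in both tissues.

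Markers of the other cells of each organ separated by the type they specialise in. Of 15 general endothelial markers, 10 were heart-high and all 15 at least 2-fold higher in heart, against 14.9% and 27.5% of all genes counted. A mean liver count under 10 was found for 2 of the 15. The list summed to 1517 CPM in heart and 361 to 372 CPM in liver. At 8-fold, 3 remained past the line. The junction cadherin Cdh5 had 217 CPM in heart and 39.4, 44.6 and 42.7 CPM in liver, while Aqp1 (201 and 83.5 ± 2.64 CPM), Egfl7 (101 and 29.6 ± 2.51 CPM) and the receptor Kdr (276 and 86.7 ± 8.51 CPM) were not called. The sinusoidal endothelium of liver gave the opposite result, with 6 of 8 markers liver-high, against 12.2% of all genes counted. Of the 8 sinusoidal markers, 4 had under 10 counts in heart and passed the filter only through liver, so the filter partly fixes this count. Stab2, a scavenger receptor of that cell, had 1 count in heart and 116, 126 and 126 CPM in liver, a ratio of 531-fold (interval 95.1 to 20992). The lectin Clec4g also had 1 count in heart and 29.4, 31.1 and 31.6 CPM in liver, and Fcgr2b had 10.5 against 46.5, 44.2 and 47.6 CPM. Fcgr2b was not called with CPM of all counts or with mitochondrially encoded genes left out (log2 ratios -1.7 and -1.86). Stab1 and Lyve1, which macrophages and lymphatic vessels of the heart also carry, were not called. Stab1 had 105 CPM in heart and 101 ± 7.63 CPM in liver, with a sign that turns with the scale, and Lyve1 12.2 and 10.4 ± 1.18 CPM.

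Of 14 fibroblast and matrix genes 10 were heart-high, against 14.9% of all genes counted, and all 14 were higher in heart. A mean liver count under 10 was found for 4 of the 14. Gsn, gelsolin, had 652 CPM in heart and 14.2, 13.1 and 11.4 CPM in liver, 50.4-fold higher, although cardiomyocytes can make it too. The fibrillar collagens Col3a1 and Col1a2 had 226 against 47.1, 39.4 and 39.1 CPM and 128 against 16.5, 14.5 and 15.3 CPM. Decorin (Dcn) was not called, with 253 CPM in heart and 74.3 ± 6.01 CPM in liver. Of 9 counted smooth muscle and pericyte genes, 7 were heart-high. The pericyte genes Rgs5 and Abcc9 were 11.9-fold and 13.5-fold higher, and Pdgfrb and Acta2 7.25-fold and 12.2-fold. Mylk was liver-high, at 27.5 CPM in heart and 111, 123 and 106 CPM in liver, but not with CPM of all counts, with mitochondrially encoded genes left out, with liver batch 2 as the reference or without liver replicate 2 (log2 ratios -1.62, -1.78, -1.92 and -1.98). Hepatic stellate cell genes were liver-high in 5 of 6, against 12.2% of all genes counted. Of the 6, 3 had under 10 counts in heart and passed the filter only through liver, so the filter partly fixes this count. Reln had 11.1 against 124, 120.4 and 135 CPM and the growth factor Hgf 1.15 against 18.4, 19.4 and 17.6 CPM. Ecm1 had 20.1 against 95.9, 95.1 and 92.3 CPM. Ecm1 was not called with CPM of all counts or with mitochondrially encoded genes left out (log2 ratios -1.8 and -1.96), and Colec11 was not called at all (10.4 and 22.1 ± 3.04 CPM).

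Macrophage genes in common use did not separate the tissues, and those of Kupffer cells did. None of 10 general macrophage markers was called, with summed levels of 318 CPM in heart and 289 to 312 CPM in liver. The complement genes C1qa, C1qb and C1qc had 24.7, 28.9 and 24 CPM in heart and 25 ± 5.16, 19.9 ± 2.04 and 24.5 ± 1.26 CPM in liver, and Lyz2 had 96.9 and 33.3 ± 3.08 CPM. The signs for C1qa and C1qc turn with the scale. Of the Kupffer cell markers, 3 of 4 counted were liver-high, against 12.2% of all genes counted. These 3 had under 10 counts in heart and passed the filter only through liver, so the filter partly fixes this count. Cd5l and Clec4f had 3 counts each in heart and 64.6, 59.5 and 62.9 and 57.5, 58.5 and 62.6 CPM in liver, ratios of 90.0-fold (interval 30.7 to 438) and 85.9-fold (interval 29.3 to 418). Vsig4 had 2 counts in heart and 17.1, 14.9 and 14.7 CPM in liver. Timd4 was not called (2.31 CPM in heart, 5.85 ± 0.583 CPM in liver).

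Red blood cell genes are markers of blood left in a tissue. Globin mRNAs were higher in heart without being called: Hbb-bs had 353 CPM in heart and 163, 158 and 148 CPM in liver, Hba-a2 227 against 112, 115 and 119 CPM, Hba-a1 207 against 109.6, 93.1 and 91 CPM and Hbb-bt 50.3 against 22, 20.7 and 27.6 CPM. Hba-a1 and Hba-a2 are near copies, so their split is uncertain. Alas2, the heme synthesis enzyme of red cell precursors, was liver-high at 12 CPM in heart and 115, 117 and 117 CPM in liver. Of 10 lymphocyte genes 1, Ptprc, was counted and not called (17.1 and 20.7 ± 4.37 CPM, a sign that turns with the scale), and the summed level of the list was 20.5 CPM in heart and 23.5 to 29.8 CPM in liver.

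Cells from adjoining tissue left few reads. Lists for skeletal muscle (10 genes), adipocytes (7), thymus and lung (7) and Schwann cells (6) had no gene counted, and their summed levels in heart were 0.692, 0.231, 0 and 7.16 CPM. Of the mesothelial genes that line the heart, 2 of 5 were counted, both only because of their heart counts, so that their call follows from the filter: Wt1 had 6.23 CPM in heart and 0, 0.692 and 0.652 CPM in liver, and Upk3b 4.62 against 0, 0.346 and 0.652 CPM. Of the bile duct genes, Spp1 was liver-high with 1 count in heart and 19, 16.9 and 18.9 CPM in liver, Sox9 was not called (2.77 CPM in heart, 10.8 ± 1.57 CPM in liver), and the other 4 did not pass the filter. How far cell make-up accounts for the differences in the other lists was not tested.

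**Figure D5:**
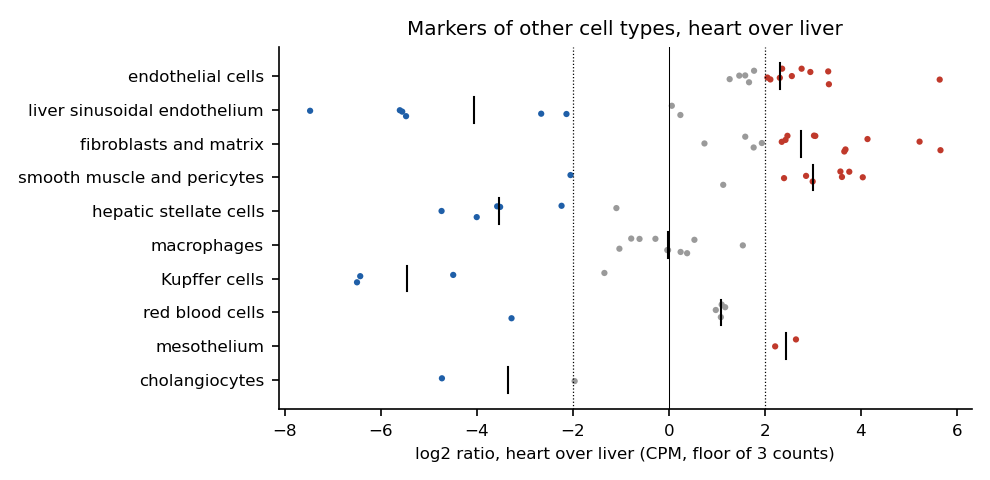
Log2 ratio of heart over liver for the counted markers of 10 other cell types, colored as in the plot of gene lists, with list medians as short bars. General endothelial and fibroblast markers lie above 0 (medians 2.31 and 2.75), sinusoidal endothelial, stellate and Kupffer cell markers mostly far below (medians -4.06, -3.54 and -5.46), and general macrophage markers around 0, where the sign turns with the scale.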

How the data were processed

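RNA-seq was read from 1 unselected heart library and 3 unselected liver libraries of batch 1, with 3 unselected liver libraries of batch 2 as a same-tissue background. The deposited table holds the authors' expected counts (estimated counts) per gene for 51368 Ensembl identifiers. Per the submitters' processing notes, UMI-tools 1.1.1, Salmon 1.9.0, R 4.4.0 and build GRCm38 were used. The transcript set and the removal of UMI duplicates are not given in the sources used here. Such estimates divide reads that fit several genes by a model, so near-identical genes can exchange counts.

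CPM were computed after leaving out CT010467.1, Lars2, mt-Rnr1 and mt-Rnr2. Values under 3 counts per library were raised to 3 counts for calls, log2 ratios and lower bounds; other folds are plain ratios of CPM. For calls, genes needed a mean of heart count and mean liver count of at least 10. Calls took a 4-fold difference and no overlap with any liver library; no p-value was computed. The rule was tested on simulated data. Symbols, positions and the length of the longest principal transcript came from GENCODE M21 (GRCm38), which matched 50896 identifiers; the other 472 held at most 0.00536% of counts. Of duplicated symbols (Atp5o, Rmrp) the identifier with the higher CPM was used. Rn7s2 and some other named genes are not reported here. Genes were named by rule. The rule took 5 markers, the 12 coding genes with the highest CPM in each direction and up to 4 members of each list by CPM per kb. It also took members past 4-fold against their list and the 21 gene pairs. List members that were not called or not counted, and a few more, were named after their values were seen. Members and lists were chosen with earlier results of these data known. Alternatives included TMM (edgeR 4.0.16) and DESeq2 1.42.0 size factors, in R 4.3.3. Intervals are at 95%, Wilson for shares and Clopper-Pearson for ratios.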

Additional observations from a re-analysis of the deposited data

How the results depend on the processing

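Counts of 1795 heart-high and 1468 liver-high genes depended on the line drawn. At 2-fold they were 3311 and 2481. Liver-high genes became the larger group at 8-fold (947 and 1058) and with a mean count of at least 50 (1017 and 1058). They stayed within 1.5 times under other scaling (TMM 1715 and 1522, DESeq2 1732 and 1510, CPM of all counts 2340 and 1258), without a count filter (1827 and 1658), with liver batch 2 as the reference (1798 and 1478), and without each liver replicate in turn (1814 to 1834 and 1473 to 1479). The largest same-tissue count, 13, was 95 at 2-fold, 5 at 8-fold, 6 with a mean count of at least 50 and 20 with no filter; its alternatives were chosen after seeing the data. Heart-high members of the TCA cycle numbered 10, and 18 at 2-fold and 5 at 8-fold. The nuclear respiratory chain went from 14 to 39 with CPM of all counts, 30 with mitochondrial genes left out, 68 at 2-fold and 3 at 8-fold. Mitochondrially encoded mRNAs went from 9 to 1 at 8-fold and 4 with liver batch 2. At 8-fold, cardiac transcription factors numbered 10, endothelial markers 3 and smooth muscle or pericyte markers 4. The cause was not tested beyond the change of threshold or scale. No called gene named above changed sign under any alternative run. No paired analysis was possible because the heart library carries no replicate number and the result comes from no test. With 3 counts as the floor, levels under 0.692 CPM in heart and 0.968 to 1.04 CPM in liver could not be told from absence. Point ratios of genes below those levels, such as Actc1, Tnnt2 and Stab2, rest on 1 to 3 counts and have wide intervals.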

Other observations

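Long noncoding RNAs were also called in both directions. Of 120 counted genes annotated as lincRNA, 32 were heart-high and 31 liver-high, and of 66 antisense genes 23 and 18, beside 1695 and 1371 of 11559 protein-coding genes. The genes named here were chosen after their values had been seen, as those with the highest CPM of their class and direction, and have no test. Among lincRNA genes, 1700020I14Rik had 451.9 CPM in heart and a mean of 111 CPM in liver, and AC157910.3 had 2.31 CPM in heart and 354 CPM in liver. Of the antisense genes, C130080G10Rik had 94.2 CPM in heart and 0.22 CPM in liver, and 0610005C13Rik had 0.69 CPM in heart and 139 CPM in liver. Whether the counting used strand is not given in the sources used here, so reads of an antisense gene and its partner may not have been told apart. The nuclear RNA Malat1 had 11623 CPM in heart and 5623, 5610.3 and 5739.6 CPM in liver and was not called.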
